A study of Mus musculus with 25 samples.

Results

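Deposited cluster 4 is a group of microglia, the resident macrophages of the central nervous system, from mouse spinal cord. Its members are the cells that the authors' cell table places in that cluster, joined by barcode to the raw counts of each library. They numbered 1377 of 30958 cells (4.45%), or 10.1% of the 13693 cells in the microglial clusters 1 to 6. The table gives the clusters numbers and no names, and all 1377 cells carried the first of its cell type codes. The name used for these cells, UMI-rich Lag3 microglia, was compared with the counts. All 9 microglial marker genes on a list, among them P2ry12, Tmem119 and Sall1, stood at 20 or more CPM (counts scaled to a fixed total per library) in the summed cells. "UMI-rich" held in 5 of the 6 libraries with at least 20 of these cells and not in the library D3_mixed 3, as given below. UMIs (unique molecular identifiers) count the captured RNA molecules of a cell.

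The study profiled myeloid cells by droplet-based 3′ single-cell RNA-seq from a 5 mm segment around a spinal cord injury, with laminectomy alone (opening of the overlying bone) as the control, Ctrl. Injured cords were taken at 1, 2, 3, 10 or 21 days (D1, D2, D3, D10, D21). The mice were Cx3cr1CreERT2, which carry an inducible Cre driven from Cx3cr1, a gene active in both microglia and monocytes, or Cx3cr1CreERT2:R26tdTomato, which add a red reporter switched on by Cre. Red and yellow cells of the second line were sorted as resident (5 libraries) and yellow cells without red as infiltrating (7 libraries). All yellow cells of the first line were sorted together and are called mixed here (12 libraries), so sort and strain cannot be told apart. The title and the sort label of 1 further D3 library disagree, and it was left out of the comparisons. Each of the 25 libraries pooled 1 to 3 mice and is the replicate. Cells per library ranged from 155 to 3800, and total UMIs from 486649 to 33204422. Only resident and mixed libraries were compared: 2 control libraries, 3 of D1, 3 of D2, 5 of D3, 3 of D10 and 1 of D21. Of the 9253 cells in infiltrating libraries, 306 were microglial and 5 were in cluster 4.

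Microglia in an uninjured cord keep a homeostatic programme that depends on TGF-beta signalling and includes the receptors P2ry12 and Cx3cr1. After damage they reduce it, divide, and turn on lipid-handling and lysosomal genes such as Apoe, Lpl and Spp1, often called the disease-associated programme. Of the 6 genes given as markers of the cluster, Lag3 encodes an inhibitory receptor that binds MHC class II, Sparc a secreted matrix-associated protein, and Ch25h the enzyme that makes 25-hydroxycholesterol. Cadm1 encodes an adhesion molecule, Kcnj2 the inward-rectifier potassium channel Kir2.1, and Nav3 a microtubule-associated protein.

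The cluster was unevenly spread over libraries. It was absent from 13 of the 25, and 6 libraries with at least 20 of its cells held 1338 cells, or 97.2% of it. As a share of microglial cells, with 95% Wilson intervals that cover counting error only, it made up 15.3% (13.5 to 17.2) in D2_resident 1. In D3_mixed 3 the share was 22.0% (18.8 to 25.6). At D10 it was 37.8% (34.2 to 41.5) in D10_resident 1, 24.7% (22.3 to 27.3) in D10_mixed 1 and 36.7% (33.7 to 39.8) in D10_mixed 2. The 3 D10 libraries therefore held the most of it under either sort, although the interval of D10_mixed 1 overlapped that of D3_mixed 3. The single D21 library had 9.43% (7.85 to 11.3). D3_resident 1 had 15 such cells, 13.9% (8.60 to 21.7), an interval that overlapped that of D2_resident 1.

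Libraries of the same day and sort differed widely. At D3, no cluster 4 cell was found in D3_resident 2, D3_mixed 1 or D3_mixed 2, which allows shares of up to 0.307%, 1.19% and 0.940% (3 cells of the total). At D2, D2_mixed 1 had none, with a limit of 0.550%, and D2_mixed 2 had 1 cell of 23. At D1, D1_mixed 3 had 14 cells (1.04%), D1_mixed 1 had 4 cells (0.332%) and D1_mixed 2 had none, with a limit of 0.377%. The controls also had none, but all 1887 control cells form cluster 1 and cluster 1 holds no other cell, so cluster 4 could not have been assigned to a control cell as the table stands. No test was made of share against time, since the same genes placed the cells in their clusters. Barcodes found in more than 1 library touched 15 of the 1377 cells.

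**Figure D1:**
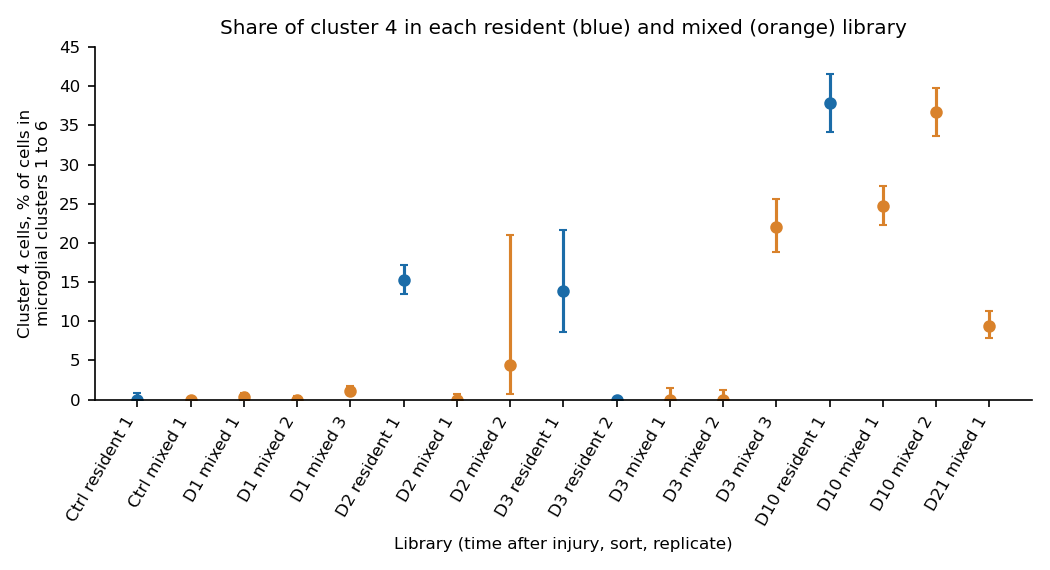
Share of cluster 4 (vertical axis, % of cells in clusters 1 to 6) in each resident (blue) and mixed (orange) library in order of time. Bars are 95% Wilson intervals for counting error. The D10 libraries lie between 24.7% and 37.8%, and 7 of the 17 libraries have no such cell.

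The cells of cluster 4 were deeper than the pooled other microglial cells in all but 1 library. Median UMIs per cell were 7259 in cluster 4 against 3408 in the other microglial clusters of D2_resident 1, and 4452 against 2079 in D10_resident 1. They were 6369 against 2121 in D10_mixed 1, 6293 against 2064 in D10_mixed 2 and 6812 against 3202 in D21_mixed 1. In D3_mixed 3 the medians were 1928 and 2060, so cluster 4 was not the deeper class there. Set against single clusters, it was far below cluster 5 in D3_mixed 3 (5542 UMIs) and close to it in D10_resident 1 (4402, from 14 cells), and it also lay below cluster 6 in D3_mixed 3 (2770). In the other 4 libraries it was above each of clusters 2, 3, 5 and 6. The ratio of medians was 2.14 in the middle of the 6 libraries (SD 0.771, n = 6), with a range of 0.936 to 3.05.

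More genes per cell were also seen at equal depth. After every cell was thinned to 3000 UMIs, and 185 cluster 4 cells and 2746 other cells with fewer UMIs were set aside, the median number of genes was 1419 in cluster 4 against 1261 in the rest of D2_resident 1. It was 1276 against 1066 in D10_resident 1, 1308 against 1121 in D10_mixed 1, 1303 against 1060 in D10_mixed 2 and 1381 against 1022 in D21_mixed 1. D3_mixed 3 again stood apart at 1234 against 1260, from only 16 cells of cluster 4. The median percent of mitochondrial counts was higher in cluster 4 in 5 of the 6 libraries, from 0.0797 against 0.0747 in D10_resident 1 to 1.57 against 0.617 in D10_mixed 2, and lower in D21_mixed 1 (0.790 against 1.01). No doublet caller was run, and the part of doublets in these depths was not tested.

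**Figure D2:**
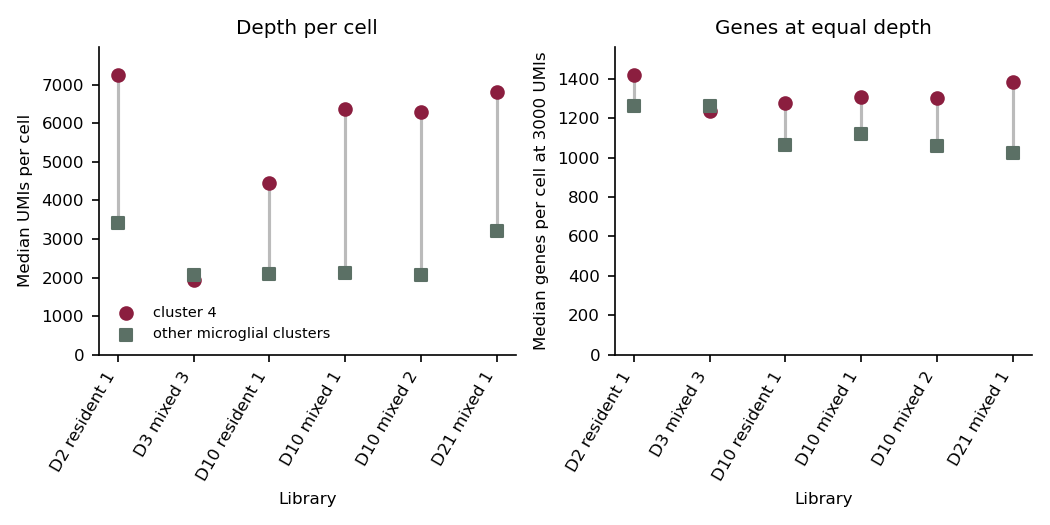
Median UMIs per cell (left axis) and median genes per cell after thinning to 3000 UMIs (right axis) for cluster 4 (circles) and the other microglial clusters (squares) in each of 6 libraries. Cluster 4 is above the rest in 5 libraries in both plots, and D3_mixed 3 is the exception.

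The values below compare the summed counts of cluster 4 with those of the other microglial clusters of the same library, as log2 ratios of CPM with 5 CPM added. The cells were clustered on these genes, so the differences are a description and carry no test. Of the 6 marker genes, 5 were higher in cluster 4 in 6 of 6 libraries. Lag3 stood at 132 CPM in D2_resident 1, 189 in D3_mixed 3, 389 in D10_resident 1, 657 in D10_mixed 1, 801 in D10_mixed 2 and 531 in D21_mixed 1. The other microglia of those libraries had 40.7, 39.9, 212, 274, 423 and 399.7 CPM of Lag3. Every library had more Lag3 in cluster 4, with a median log2 ratio of 1.08, and the gap was smallest at D21. Among clusters 2, 3, 5 and 6, cluster 3 came nearest, with 369 CPM in its summed cells against 539 in cluster 4. The range of cluster 3 over 12 libraries, 38.2 to 519.5 CPM, overlapped that of cluster 4. Control cells had 381 CPM (mixed) and 223 CPM (resident), inside the range of cluster 4.

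Nav3 separated the cluster by the most of the 6: 203, 170.1, 116, 127, 135 and 133 CPM, in the same order of libraries, against 39.8, 47.7, 19.6, 21.6, 16 and 11.5 in the rest. Its median log2 ratio was 2.30, and the control cells lay above both at 275 and 440.2 CPM. Kcnj2 stood at 22.6, 18.5, 59.8, 71.4, 91.7 and 69.4 CPM (median log2 ratio 1.18). Cadm1 ranged from 107 CPM in D3_mixed 3 to 164 in D10_mixed 1 (median log2 ratio 0.93). Sparc was abundant in all microglia, and cluster 4 had 2127, 5100, 3049, 2816, 2683 and 1592 CPM, with a median log2 ratio of 0.61 and its peak in D3_mixed 3. Controls had 4250 CPM (mixed) and 3527 CPM (resident) of Sparc.

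Ch25h was the weakest of the 6 as a mark of this cluster. Its levels were 176, 74.0, 296, 243, 213 and 213 CPM in cluster 4 and 151, 82.6, 230.1, 198, 156 and 162 CPM in the rest, so it was lower in D3_mixed 3, and its median log2 ratio was 0.32. In control cells it was near 0, at 0.893 and 1.62 CPM, so it marked injury over control far more than cluster 4 over the rest. At equal depth, 22.2% of cluster 4 cells and 28.0% of the others had a Ch25h UMI (medians over libraries), and cluster 4 was higher in only 1 of 6 libraries. The same shares were 62.2% and 33.1% for Lag3, 32.3% and 7.44% for Nav3, 33.4% and 20.2% for Cadm1, 95.5% and 81.8% for Sparc, and 17.1% and 6.40% for Kcnj2. All 5 kept the higher share in cluster 4 in at least 5 of 6 libraries at this depth. In the monocyte- and macrophage-like clusters 8 to 14 of 5 of these libraries, the corresponding medians were 2.70% for Lag3, 3.70% for Ch25h, 0.935% for Sparc, 0.746% for Kcnj2, 0.706% for Cadm1 and 0% for Nav3. Those 3138 cells were not shallow, with a median of 7045 UMIs before thinning and without a depth cut, against 5659 in cluster 4, and their highest value in any library was 13.4%, for Cadm1.

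Promoters are shown for Ch25h, Kcnj2 and Sparc, because edgeR called the first pair higher at D10 than in D3_mixed 3 within the cluster and Sparc lower. The calls of Ch25h and Sparc did not hold in every setting, as given below. Each runs from 250 bases before to 50 bases after the RefSeq start on GRCm38.p6, 5′ to 3′ on the strand of the gene. They are Ch25h (chr19:34475099-34475398, minus strand), Kcnj2 (chr11:111065914-111066213, plus strand) and Sparc (chr11:55420031-55420330, minus strand). Capitals mark matches to a motif searched on both strands.
Ch25h: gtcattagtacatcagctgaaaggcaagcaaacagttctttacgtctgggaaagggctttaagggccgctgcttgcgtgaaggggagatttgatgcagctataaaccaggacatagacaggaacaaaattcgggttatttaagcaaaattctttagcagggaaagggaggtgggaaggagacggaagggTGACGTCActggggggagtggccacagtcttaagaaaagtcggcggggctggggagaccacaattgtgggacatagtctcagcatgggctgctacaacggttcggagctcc
Kcnj2: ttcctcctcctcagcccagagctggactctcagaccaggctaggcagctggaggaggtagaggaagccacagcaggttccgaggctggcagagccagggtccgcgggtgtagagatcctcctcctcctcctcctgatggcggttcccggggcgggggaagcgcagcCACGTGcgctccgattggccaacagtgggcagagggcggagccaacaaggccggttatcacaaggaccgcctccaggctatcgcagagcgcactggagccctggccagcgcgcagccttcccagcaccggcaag
Sparc: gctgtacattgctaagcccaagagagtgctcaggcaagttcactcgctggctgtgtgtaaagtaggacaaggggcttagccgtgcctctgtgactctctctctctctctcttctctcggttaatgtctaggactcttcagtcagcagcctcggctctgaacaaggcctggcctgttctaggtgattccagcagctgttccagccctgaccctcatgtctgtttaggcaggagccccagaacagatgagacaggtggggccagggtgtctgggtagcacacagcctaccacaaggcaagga
The capitals in Ch25h are the cAMP response element TGACGTCA, 61 bases before the start, which 1.79% of 32851 promoters of this length hold. Those in Kcnj2 are the E-box CACGTG, 84 bases before the start, which 7.15% hold. The PU.1 motif GAGGAAGT (3.20% of promoters) and the AP-1 motif TGANTCA (7.81%) were in none of the 3, and Sparc had no match to any of the 4 motifs. The motifs do not overlap one another. On GRCm38 the GENCODE genes are Ch25h at chr19:34473778-34475164, Kcnj2 at chr11:111066164-111076821, Sparc at chr11:55394500-55423183 and Lag3 at chr6:124904361-124911705.

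Across all 5880 genes at 20 or more CPM, 836 were higher in cluster 4 in all 6 libraries with a median of at least 2-fold (14.2%), and 79 were lower by the same rule (1.34%). At 3000 UMIs per cell 726 were higher, of which 533 were among the 836 (63.8%). The number was 976 at 2000 UMIs and 351 at 5000 UMIs, and it was 1029 with 1 CPM added and 335 with 20 CPM added. The median gene had a log2 ratio of 0.26, to which all ratios here compare. The 12 genes with the highest median ratio were AC149090.1, Ogt, Nav2, Tmcc3, Stx16, Snx29, Csmd3, Zup1, Pou2f2, Ssh2, Col27a1 and Gtpbp2. Ogt encodes the enzyme that adds O-GlcNAc to proteins. It stood at 159.6, 107, 140.3, 89.6, 104 and 158 CPM in cluster 4 and at 21.7, 37.7, 12.1, 11.4, 6.14 and 3.06 in the rest, a median log2 ratio of 2.85. Tmcc3, which encodes a membrane protein of the endoplasmic reticulum, had 176 to 298 CPM in cluster 4 and 11.7 to 71.9 in the rest. Pou2f2, a transcription factor known from B cells, had 319.6 to 605 CPM against 43.8 to 107. These genes were picked for their ratio, so the gaps describe them.

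The 12 leading genes were high in control microglia too. Their summed level was 3637 and 3749 CPM in the 2 control libraries, a median of 2063 CPM in cluster 4 (range 1787 to 2647, 6 libraries), 171 CPM in cluster 3 (34.9 to 1150), 155 CPM in cluster 2, 143 CPM in cluster 5 and 228 CPM in cluster 6. Cluster 4 was thus below the controls and above every other microglial cluster of an injured cord, of which the nearest was cluster 3 of D3_mixed 3 at 1150 CPM. In the 5 resident and mixed libraries of injured cord without any cluster 4 cell, microglia as a whole had 94.5 to 159.7 CPM, and in D10_infiltrating 2, also without one, 226 CPM. Other myeloid cells lay between: the monocyte- and macrophage-like clusters 8 to 14 had a median of 648 CPM (342 to 1189), the dendritic-like cluster 15 had 625 CPM and the neutrophil-like cluster 16 had 747 CPM. Cluster 7, measured in 1 library, had 1490 CPM, with a median of 13526 UMIs over its cells.

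The same genes, chosen for their level in these cells, were also counted cell by cell at equal depth, as a description. With every cell at 3000 UMIs, 75% to 96.3% of cluster 4 cells in the 6 libraries had 2 or more UMIs of the leading genes, against 8.26% to 17.9% of cluster 3 cells in 5 libraries and 48.3% in D3_mixed 3. Clusters 5 and 6 reached higher shares than cluster 3 in several libraries, up to 28.6% in cluster 5 of D10_mixed 1 and 54.5% in cluster 6 of D10_resident 1, the latter from 11 cells. Control cells had 99.8% and 100%. The cells of D3_mixed 3 were the least distinct in both directions, since its cluster 4 had the lowest share and its cluster 3 the highest of any cluster 3.

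**Figure D3:**
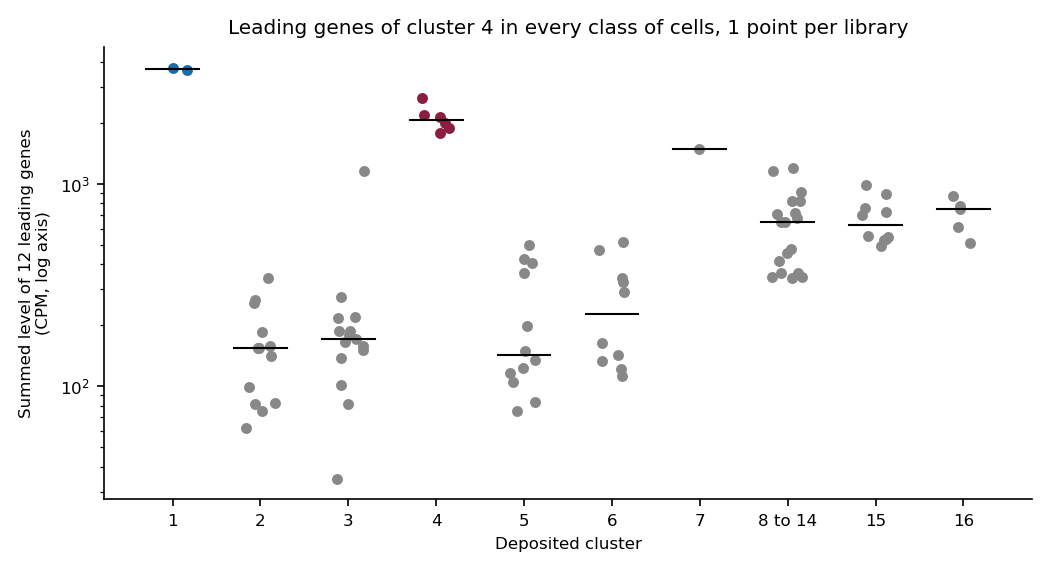
Summed level of the 12 leading genes (CPM, log axis) in each deposited cluster, 1 point per library, with a line at the median. Clusters 8 to 14 are monocyte- and macrophage-like, 15 dendritic-like and 16 neutrophil-like. Cluster 4 (dark red) lies between 1787 and 2647 CPM, below the control cells of cluster 1 (blue) at 3637 and 3749.

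Levels of the higher genes were also set beside control. Of the 836 genes higher in cluster 4, 738 (88.3%) were within 2-fold of their control level in cluster 4 and 28 (3.35%) were so in cluster 3. Over all 5880 genes the numbers were 5461 (92.9%) and 3393 (57.7%), so the share in cluster 4 was near that of all genes and the share in cluster 3 was below it. The median log2 difference from control for the 836 genes was -0.56 in cluster 4 and -2.09 in cluster 3. Of the 20 homeostatic genes, 19 were nearer to control in cluster 4 than in cluster 3, and of 21 disease-associated genes 14 were (66.7%), beside 85.1% of all 5880 genes. The genes had been picked for being high in cluster 4, so this count describes them and is not independent of the choice.

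Homeostatic genes were higher as a group in cluster 4 than in its neighbours, and whether they were kept or regained was not tested. Of 20 tested, 10 were higher by the rule above and none lower, with a median log2 ratio of 1.00 against 0.26 for all genes. P2ry12, the ADP receptor of microglial processes, had 483, 954, 387, 671, 643 and 606 CPM in cluster 4 and 173, 191, 124, 278, 256 and 159 in the rest. Controls had 3590 CPM (mixed) and 1420 CPM (resident), so cluster 4 lay above its neighbours and below uninjured cells in every library. Tmem119, a microglial surface protein, had 356 to 647 CPM against 145 to 353 in the rest and 1544 and 1519 in controls. Selplg and Sall1, a surface ligand for selectins and a transcription factor of microglial identity, showed the same order, with median log2 ratios of 1.07 and 1.41.

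Signalling and surface genes were the other groups well above the background of 14.2%. These counts are a description, since some of the lists hold Kcnj2, Nav2 and Nav3, which were markers or leading genes of the cluster. Long genes were also called higher more often, at 37.1% of those of 100 kb or more, and the lists were not matched for length. The TGF-beta list had 4 of 10 higher: the receptors Tgfbr1 and Tgfbr2, the inhibitor Smad7 and the activating cofactor Nrros. Tgfbr1 stood at 351 to 596 CPM against 117 to 178 in the rest and 1246 and 771 in controls. Among adhesion and cytoskeletal genes 11 of 20 were higher, including Itgam, Itga6 and the microtubule genes Nav2 and Nav3. Among ion channels and transporters 7 of 14 were, including Kcnj2, the potassium channel Kcnk6 and the ATP-gated channel P2rx7. Immediate early genes had 6 of 12 higher (Jun, Junb, Ier5, Btg2, Zfp36 and Klf6).

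Smaller numbers were higher in the other inhibitory and lipid groups. Of 9 inhibitory receptors, Lag3 (itself a marker of the cluster), Vsir and Lilrb4a were higher. Lilrb4a was low in controls (1.25 and 2.16 CPM), 33.1 to 87.6 CPM in cluster 4 and 5.10 to 16.8 CPM in the rest, so it did not follow the control level. Of 11 sterol and lipid genes, the exporter Abca1, the cholesterol transporter Npc1 and Mylip, which degrades the LDL receptor, were higher. Abca1 also exceeded control: 185 to 322 CPM in cluster 4, 83.8 to 143 in the rest, and 81.1 and 53.4 in controls. The NF-kB and cytokine list had 5 of 20 higher, the growth factor list 1 of 7 (Pdgfb), the interferon-stimulated list none of 14 and the MHC class II list none of 6.

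Few disease-associated genes set cluster 4 apart from its neighbours. By the rule above none of 21 were higher, and the median log2 ratio was 0.06. The 3 that were lower were Gpnmb, Lgals3 and Fabp5, encoding a lysosomal glycoprotein, galectin-3 and a fatty acid binding protein. Fabp5 stood at 37.1, 174, 324, 404, 336 and 526 CPM against 243, 1612, 1116, 899, 895 and 1375 in the rest, and at 7.68 and 21.6 in controls. Apoe had 5769 to 76095 CPM in cluster 4, above the rest in 6 of 6 libraries at a median log2 ratio of 0.36, against 1575 and 1625 in controls. Spp1 (osteopontin) stood at 5255 to 12107 CPM against 8122 to 37479 in the rest and 9.83 and 18.9 in controls. Both lay above their control level in cluster 4 of all 6 libraries.

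Cell division genes were low in cluster 4. The 8 lowest ratios were those of Hist1h1b, Birc5, Top2a, Nusap1, Ube2c, Cenpf, Prc1 and Pbk, all of the cell cycle, and 10 of 12 genes of the cell division list were lower. Top2a, the DNA topoisomerase of dividing cells, had 0 to 7.55 CPM in cluster 4 and 14.8 to 187 in the rest. Against cluster 3 alone the gaps were smaller, with median log2 ratios of 0.01 for Hist1h1b, 0.00 for Top2a and Nusap1, -0.11 for Cenpf, -0.13 for Prc1, -0.21 for Pbk, -0.53 for Ube2c and -0.57 for Birc5. Genes lower numbered 19 when clusters 2 and 6 were left out of the comparison and 9 against cluster 3 alone. The count of higher genes was 830 and 900 in the same comparisons. Cytosolic ribosomal protein genes had a median log2 ratio of -0.32, with none of 77 past the rule in either direction.

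Markers of other cell types were low. None of the monocyte, T and NK cell, neuron, endothelial, erythroid, or fibroblast and pericyte markers reached 20 CPM in the summed cluster. Cd3d, Trac and Ncr1, Ms4a1 and Igkc, Col1a2, Dcn, Col3a1 and Rgs5, Clec9a and Ly6g had no count at all. The macrophage list summed to 677 to 1740 CPM in cluster 4 and to 1656 to 5427 in the rest. The monocyte list summed to 2.24 to 44.4 CPM, with the highest value in D3_mixed 3, and the B cell list to 62.7 to 178 CPM from Cd79b and Ighm. Csf3r, on the neutrophil list, and Slc1a3, on the astrocyte list, were called higher while the other defining genes of those cells were low.

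The genes that marked cluster 4 were long. The median gene spanned 49.1 kb of the genome among the 836 higher genes, 10.6 kb among the 79 lower genes and 22.3 kb among all tested, with 99.6% of genes matched to GENCODE M21. The share of genes called higher climbed with the span, from 4.15% of genes under 5 kb, through 6.23%, 9.33%, 14% and 21.2%, to 37.1% of those of 100 kb or more. All 6 libraries showed it: Spearman's rho between span and log2 ratio across 5854 genes was 0.25 in D3_mixed 3 and up to 0.46 elsewhere, and 0.29 to 0.60 for transcript length. These are descriptions across genes that share libraries, depth and the clustering, and genes are not independent replicates. Nav3 spans 775 kb, Csmd3 1211 kb and Nav2 701 kb, but Ogt spans 44.3 kb and Gtpbp2 8.34 kb. Whether reads from introns were counted is not given in the sources used here, and the part of unspliced RNA was not tested.

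**Figure D4:**
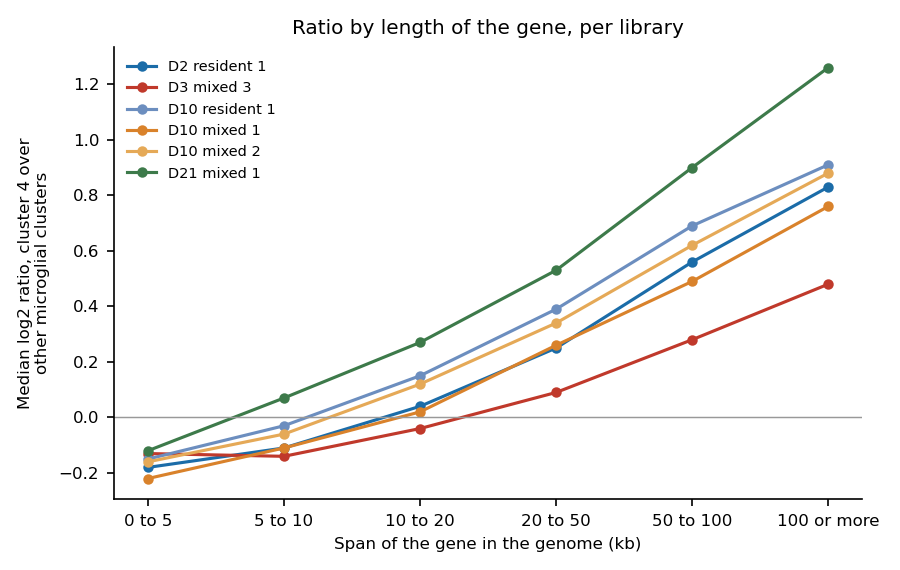
Median log2 ratio of cluster 4 over the other microglial clusters (vertical axis) for genes grouped by their span in the genome (horizontal axis, kb), 1 line per library. The lines rise from below 0 for genes under 5 kb to positive values for genes of 100 kb or more in all 6 libraries, least in D3_mixed 3.

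How the cluster itself differed between time points was tested with edgeR's quasi-likelihood test on its summed counts in 6 libraries (9457 genes, Benjamini-Hochberg adjustment). The fit held time and sex, leaving 1 residual degree of freedom. With the sex term, D10 against D2 or D3 compared the 2 male mixed libraries of D10 with 1 male library, and D21 against D10 compared 1 female mixed library with 1 female resident library. A fit with sort in place of sex, added after the data were seen, instead matched D2_resident 1 with D10_resident 1 and D21_mixed 1 with the 2 D10 mixed libraries. It left D10 against D3 as it was. The D2 and D10 libraries matched by sort also share a sequencing pool code, and pool divides the 3 D10 libraries exactly as sex and sort do, so those 3 cannot be told apart there. The residual spread in both fits is that between the 2 mixed D10 libraries. D10 against D2 with sort, and D21 against D10 with sex, therefore set 1 library against 1 other with no replicate in either arm, and their calls describe those libraries. The remaining tests have 1 library in an arm, whose spread is assumed to be that of the others. Mice were pooled within libraries, so p-values do not measure the spread between mice. In these time contrasts they rest on the spread between the 2 mixed D10 libraries, which share day, sex, sort, strain and pool. They also rest on spread borrowed across genes, with a median of 49.1 prior degrees of freedom, and not on the spread between libraries in general. The sums by themselves do not tell fewer cells with a transcript from less of it per cell. At 3000 UMIs per cell, 31.5% of cluster 4 cells had a Lag3 UMI in D2_resident 1. The shares were 49.8%, 74.5% and 82.0% in D10_resident 1, D10_mixed 1 and D10_mixed 2.

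Cluster 4 had lower interferon-stimulated and higher disease-associated transcripts at D10 than at D2. In the other microglia of the same libraries, the 14 interferon-stimulated genes summed to 2801 CPM at D2 and to 1402, 985 and 821 at D10. Apoe stood there at 2187 CPM and then at 54121, 43928 and 56637, so these directions were shared. Whether cluster 4 changed differently from its neighbours between D2 and D10 was not tested. The contrast of D10 with D2 was added after the data were seen. By edgeR's test with sex, which sets a resident D2 library against mixed D10 libraries, 828 genes were higher at D10 (8.76% of those tested) and 637 lower (6.74%). With sort in place of sex, which sets a male against a female library of 1 sort, 362 were higher (3.83%) and 289 lower (3.06%), and 453 genes were called in the same direction by both fits. Without either term 148 were higher (1.56%) and 141 lower (1.49%). All 14 interferon-stimulated genes tested were lower at D10. Ifit1, an antiviral RNA-binding protein, had 80.7 CPM in D2_resident 1 and 12.8, 7.65 and 7.70 in D10_resident 1, D10_mixed 1 and D10_mixed 2, which is -3.15 in log2 change (SE 0.24, edgeR adjusted p = 7.07e-15). Isg15, a ubiquitin-like modifier, went from 230.4 CPM to 58.2, 62.9 and 49.1. D10_resident 1, of the same sort and strain as D2, was at the low level of the mixed D10 libraries for both genes. The 14 genes summed to 2614 CPM at D2 and to 1189, 927 and 884 at D10, and in control cells to 2245 (resident) and 597 (mixed), so the 2 control libraries differed as well. Those differ in sort, strain, sex and pool, which cannot be told apart. The fit with sort had 12 of the 14 lower, and Ifit1 changed by -2.48. Without either term 11 of the 14 were lower.

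Of 21 disease-associated genes 14 were higher at D10 than at D2, and Spp1 was lower. Apoe, the lipid carrier, rose from 5769 CPM to 66220, 59480 and 64587 (log2 change 3.66, SE 0.18, edgeR adjusted p = 8.58e-23). Apoc1, its neighbour in the genome, rose from 23.2 CPM to 544, 861 and 732 (log2 change 5.32). Cst7, a cystatin, rose from 211 CPM to 1050, 739 and 690.1, and Itgax, the integrin CD11c, from 8.13 CPM to 31.1, 53.5 and 56.1. All 3 D10 libraries lay above D2 for these 4 genes, the resident one included. In the fit with sort 12 of the 21 were higher and none lower, and Apoe changed by 3.70. Without either term 11 were higher and none lower. The macrophage list, which shares Fabp5, Lgals3 and Gpnmb with this one, moved over the same contrast: 4 of 9 were higher at D10 (Fn1, Ms4a7, Fabp5 and Lgals3) and 2 lower (Ecm1 and Vim), against 2 and 1 in the fit with sort and 2 and 1 without either term. That list summed to 677 CPM at D2 and to 1016, 1139 and 1017 at D10. The part of macrophage RNA in these values was not tested.

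The chemokines Ccl2 and Ccl7 and the arrest gene Cdkn1a were lower at D10. By CPM, without a test, they were lower in the other microglia of the same libraries too. Ccl7, a monocyte attractant, had 65.6 CPM at D2 and 4.78, 2.12 and 1.47 at D10 (log2 change -4.92, SE 0.35, edgeR adjusted p = 2.99e-16). Ccl2 had 352 CPM at D2 and 218, 46.7 and 42.5 at D10. Cdkn1a, the cell cycle inhibitor p21, had 350.0 CPM at D2 and 91.7, 34.8 and 35.6 at D10 (log2 change -3.08, or -1.75 with sort in place of sex). In that fit Ccl7 changed by -3.58 and Ccl2 by -0.52, and all 3 kept their call. Without either term Cdkn1a lost it, and not all of Ccl2, Ccl7 and Ccl12 kept theirs. The NF-kB and cytokine list as a whole had 7 of 21 higher (Nfkbia, Tnfaip3, Rel, Relb, Bcl2a1b, Ccl3 and Cd83) and 3 lower (Ccl2, Ccl7 and Ccl12), against 5 and 3 in the fit with sort and 1 and 2 without either term. Of 11 cell division genes 5 were lower, and 4 of 6 MHC class II genes were higher. These counts were 2 and 2 in the fit with sort, and without either term 2 and 1. All 8 mitochondrial transcripts were higher at D10 in the fit with sex, all 8 were lower with sort in place of sex and none passed without either term. The percent of mitochondrial counts was likewise high in the mixed D10 libraries (1.14 and 1.57 against 0.718 at D2) and low in D10_resident 1 (0.0797). Markers of other cells moved as well: 4 of 6 border macrophage genes were lower at D10 (Mrc1, Lyve1, Cbr2 and F13a1) and Folr2 was higher, while the whole list summed to 81.3 CPM at D2 and 145, 91.8 and 49.1 at D10. The neuron genes Snap25 and Nefl were lower, and that list summed to 56.3 CPM at D2 and 12, 9.77 and 9.90 at D10. In the fit with sort both neuron genes were again lower, and 2 border macrophage genes were lower and 1 higher. Single genes of other lists also passed with sex: Flt1 (endothelium), Hbb-bt (erythroid), Csf3r (neutrophil), H2-Ab1 (dendritic cell) and Slc1a2 (astrocyte) were higher and Cnp (oligodendrocyte) lower. The part of these cells in the contrast was not tested.

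The marker genes moved over the same interval, and by CPM each moved in the same direction in the other microglia of those libraries. Lag3 was higher at D10 than at D2 by 2.70 on the log2 scale (SE 0.16, edgeR adjusted p = 4.35e-18), Kcnj2 by 2.08, Cadm1 by 0.65, Sparc by 0.60 and Ch25h by 0.60, and Nav3 was lower (-0.40). With sort in place of sex Lag3 (1.74), Kcnj2 (1.57), Ch25h (0.93), Sparc (0.70) and Nav3 (-0.64) were called and Cadm1 (0.37) was not. Without either term the calls of Lag3 (2.45), Ch25h, Cadm1 and Nav3 were lost. Over the 6 libraries, 10 of 5879 other genes followed exactly the rank order of Lag3 in cluster 4 (Spearman's rho of 1.00), too many ties for the 8 nearest to be named.

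D10 against D3 gave 187 genes higher (1.98%) and 192 lower (2.03%) by edgeR's test. The D3 arm was D3_mixed 3 alone, the shallow library, with 124 cells and 270385 UMIs in the cluster. The largest falls included Ccl7, S100a6, S100a10, Fabp4, Pdlim7, Chil3 and Ube2c. S100a6, a calcium-binding protein, had 59.2 CPM at D3 and 0, 3.40 and 2.93 in D10_resident 1, D10_mixed 1 and D10_mixed 2. Several of these genes were abundant in the 2976 monocyte- and macrophage-like cells of D3_mixed 3, at 1060 CPM for S100a6, 301 for Ccl7 and 343 for Chil3. The part of RNA from those cells in the cluster 4 values was not tested.

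The largest rises were all of genes with no count in cluster 4 at D3, so their folds are lower bounds from 3 counts in that library (11.1 CPM). Cybb, a subunit of the phagocyte NADPH oxidase, was at least 5.46-fold higher at D10, Egr1 at least 5.08-fold, Tmem185b at least 3.76-fold and Bhlhe40 at least 3.60-fold. The others, 3830403N18Rik, Sc5d, Btf3l4 and Scaper, had bounds of 2.68, 2.01, 1.95 and 1.85. Cybb stood at 72.6 CPM in the other microglia of that D3 library, and at 48.8 CPM in cluster 4 of D2_resident 1.

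In the disease-associated list 11 of 21 genes were higher at D10 than at D3 and 3 lower (Spp1, Ctsd and Ctsl); both contrasts share the D10 libraries. Without the sex term 7 were higher and none lower. Apoe had 19199 CPM at D3 and rose by 1.76 in log2 units (SE 0.16, edgeR adjusted p = 1.33e-11). Lpl, lipoprotein lipase, had 226 CPM at D3 and 1068, 1133 and 1214 at D10. None of the 14 interferon-stimulated genes passed in this contrast. Lag3 (log2 change 2.01), Kcnj2 (2.21) and Ch25h (1.68) were higher at D10 and Sparc (-0.83) lower, while Cadm1 (0.64, edgeR adjusted p = 0.161) and Nav3 (-0.31, edgeR adjusted p = 0.523) did not pass. With cells thinned to 3000 UMIs, which left 16 cells at D3, Sparc stood at 0.23 and Ch25h at -0.19, so both changed sign. A second D3 library, D3_resident 1, had 15 cells of the cluster and was too small for this fit. It ran against both directions, with Ch25h at 360.0 CPM (50 UMIs), above the 213 to 296 of D10, and Sparc at 2103 CPM (292 UMIs), below the 2683 to 3049 of D10. Lag3 (57.6 CPM, 8 UMIs) and Kcnj2 (1 UMI) were below D10 there too. With libraries of at least 10 cells, which adds it, Ch25h (0.66) and Sparc (-0.26) did not pass edgeR's test, while Lag3 (2.19) and Kcnj2 (2.39) did. Without the sex term the calls of Lag3 (1.76) and Kcnj2 (2.08) were lost and 39 genes (0.412%) were higher and 23 (0.243%) lower in all.

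**Figure D5:**
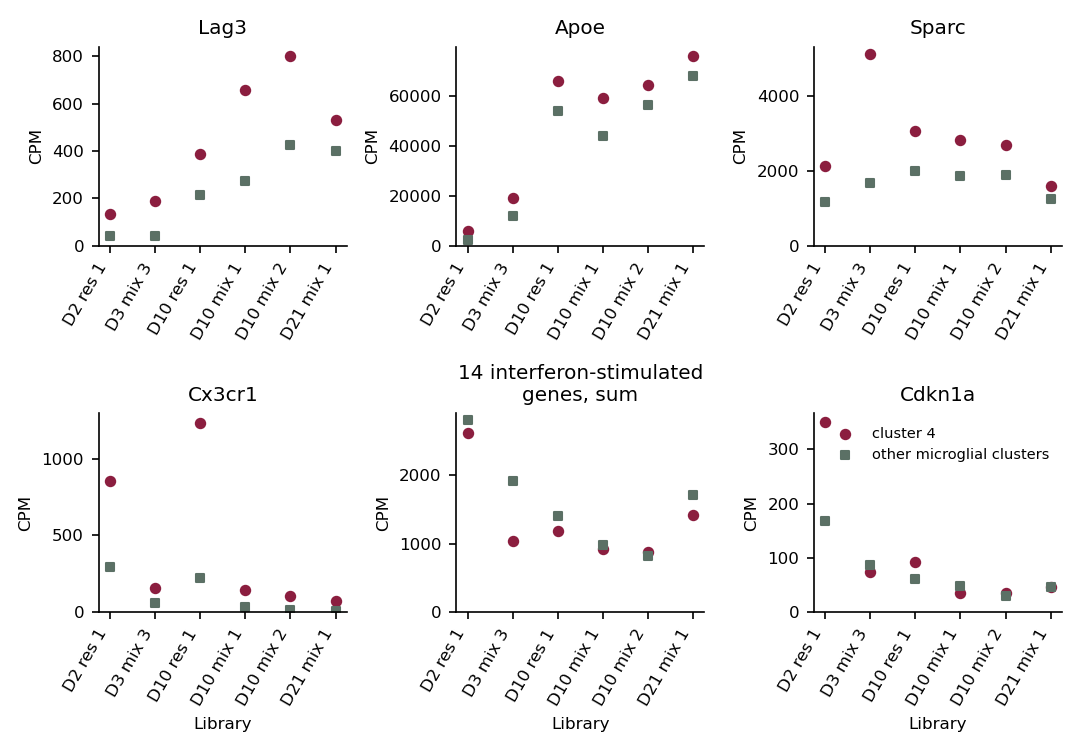
Levels in CPM (vertical axes) of Lag3, Apoe, Sparc, Cx3cr1, the sum of 14 interferon-stimulated genes and Cdkn1a in cluster 4 (circles) and the other microglial clusters (squares) of 6 libraries (horizontal axes). Apoe is 59480 CPM or more in the D10 and D21 libraries of cluster 4, and Cx3cr1 is highest in the 2 resident libraries.

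From D10 to D21, 133 genes were higher (1.41%) and 136 lower (1.44%) by edgeR's test, in a comparison of D21_mixed 1 alone with D10_resident 1 alone, which differ in time, sort, strain and pool. Without the sex term edgeR called no gene and 710 had an unadjusted p under 0.05, and DESeq2 with that term called 24. The values with sex are thus a description of 2 libraries, given without p-values. With sort in place of sex, which sets D21_mixed 1 against the male D10 mixed libraries, 74 were higher (0.782%) and 57 lower (0.603%), and 56 genes were called in the same direction by both. All 8 mitochondrial transcripts were higher at D21 in the fit with sex and 3 were lower in the other; their sum was 4929 CPM in D10_resident 1, 16122 and 17102 in the D10 mixed libraries and 14471 at D21. The largest negative value with sex was that of Cx3cr1, the fractalkine receptor, at -4.20 in log2 units. Its levels in cluster 4 were 857 CPM in D2_resident 1 and 1235 in D10_resident 1, and 159, 141, 102 and 69.4 in the mixed libraries D3_mixed 3, D10_mixed 1, D10_mixed 2 and D21_mixed 1. Both resident libraries were thus high and all 4 mixed ones low, and controls split the same way (1609 CPM resident, 201 CPM mixed). With sort in place of sex the change was -0.90 (edgeR adjusted p = 0.0283), and without D10_resident 1 it was -0.88 and not called.

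Other genes lower at D21 included Folr2, a folate receptor of border macrophages (55.0, 29.3 and 26.4 CPM at D10, 5.59 at D21), the chemokine Ccl4 (2397, 823 and 1208 CPM, then 567), Saa3, Nosip, Tmem42, Ctla2a and Hist1h2ac. The higher genes were led by H2-Aa, an MHC class II chain, at 1.59, 4.67 and 13.2 CPM at D10 and 35.8 at D21 (log2 difference 4.37). Mmp12, Dkk2, Dock1, Dusp1, Fos, Gas7 and Cd36 followed. Fos, the immediate early factor, had 7.97, 4.67 and 12.5 CPM and then 44.8. For Folr2, Ccl4, H2-Aa and Fos the D21 library lay outside the range of all 3 D10 libraries. With sort in place of sex Folr2 (-2.40), H2-Aa (1.85) and Fos (2.23) were called and Ccl4 (-0.94) was not. Sparc was lower at D21 in both fits (-0.99 and -0.89). Lag3 did not pass in the fit with sex (0.40) and was lower with sort in place of sex (-0.56, edgeR adjusted p = 0.0243) and in mixed libraries alone (-0.54, edgeR adjusted p = 0.0258). The other 4 markers passed in neither fit.

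Whether cluster 4 changed differently from its neighbours between D3 and D10 was asked with an interaction term in edgeR over 9982 genes. The difference was positive for 99 genes (0.992%) and negative for 306 (3.07%). Of the markers, Lag3 (-1.51, SE 0.31, edgeR adjusted p = 1.62e-04) and Sparc (-1.34, SE 0.17, edgeR adjusted p = 1.35e-11) differed. Without D10_mixed 2 the Lag3 value was -1.42 and no longer passed (edgeR adjusted p = 0.0623), nor did it with libraries of at least 10 cells (-0.95), while Sparc passed in both. For Lag3, cluster 4 rose from 189 CPM to 389, 657 and 801 while the rest stood at 39.9 CPM and then at 212, 274 and 423, the larger factor. Sparc went from 5100 CPM to between 2683 and 3049 in cluster 4 and from 1671 CPM to between 1859 and 1987 in the rest. Of 20 homeostatic genes 8 had a negative difference and none a positive one, among them P2ry12, which fell in cluster 4 from 954 CPM to 387, 671 and 643. In the disease-associated list 9 of 21 were negative and 4 positive. With cells thinned to 3000 UMIs the Lag3 value was 0.14, and 82 genes passed in all.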

How the data were processed

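For every library the authors deposited UMI counts by gene and cell, with a cell table of cluster, cell type and pool codes and the percent of mitochondrial counts. Cell Ranger 3.1.0, GRCm38 and mm10 are named, per the submitters' processing notes. Counts summed to the deposited total for all 30958 cells, of 713 or more UMIs and at most 22.65% mitochondrial counts. No cell filter or doublet caller was added. Counts were summed per library and cluster where a library had at least 20 cells, and scaled to CPM. Genes with 20 or more CPM in cluster 4 or the rest were compared, with 5 CPM added. Thinning drew 3000 UMIs per cell (alternatives 2000 and 5000).

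Time was tested in edgeR 4.0.16 (TMM, filterByExpr, quasi-likelihood test, Benjamini-Hochberg threshold 0.05), with DESeq2 1.42.0 as an alternative, in R 4.3.3 with Python 3.11.15. On simulated counts for D10 against D3, D21 against D10 and the interaction, the fits recovered 77.0%, 82.0% and 40.0% of 4-fold changes and 10.0%, 10.0% and 3.00% of 2-fold changes, with 5.43%, 9.80% and 6.52% of calls false. Those counts were drawn with the same spread for every gene and no difference between libraries by sex, sort or pool. The shares recovered and false therefore need not hold in the real libraries. Contrasts with Ctrl or D1 were planned, but no library there had 20 cells of the cluster. Genes named are the 6 markers, the 12 highest and 8 lowest ratios, the 8 largest rises and falls per contrast (5 for the interaction) at 20 or more CPM, and members of fixed lists. The cells, lists and genes were chosen with earlier results of these data known. Xist, Y-linked genes and the reporters were not analysed here, and some genes that the rules name are not reported here.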

Additional observations from a re-analysis of the deposited data

Results flagged for a closer look

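The change from D3 to D10 differed between cluster 4 and the other microglial clusters, by an interaction term in edgeR, for 12 named genes. The values are the log2 change in cluster 4 minus that in the rest. Positive differences were found for Cybb (9.86), Sec24a (9.32), Metrnl (9.01), Pxn (8.68) and Bhlhe40 (8.68). All 5 had no count in cluster 4 at D3, where the rest had 72.6, 14.2, 35.6, 20.6 and 19.9 CPM, so the fitted values depend on the prior count and are no measure of size. Negative differences were found for P3h3 (-3.44), Apod (-3.26), Tcp11l2 (-3.16), S100a8 (-3.00) and H2-Oa (-2.96), and for the markers Lag3 (-1.51) and Sparc (-1.34). P3h3 stood at 40.7 CPM in cluster 4 at D3 against 3.56 in the rest, while at D10 both classes lay between 19.6 and 32.3. Apod, an apolipoprotein, stood at 66.6 CPM in cluster 4 at D3 and between 6.37 and 12 at D10. Every one of these values has D3_mixed 3 as its only D3 library. Without D10_mixed 2 the calls of Cybb, Sec24a, Metrnl, Pxn, Bhlhe40, Tcp11l2, S100a8 and Lag3 were lost.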

How the results depend on the processing

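Genes higher in cluster 4 numbered 762 to 1011 and genes lower 79 to 101 without each library in turn. Higher genes were 976 with cells thinned to 2000 UMIs, 351 thinned to 5000 UMIs, 1029 with 1 CPM added and 335 with 20 CPM added. Lower genes were 35 with 20 CPM added, 19 with the rest taken without clusters 2 and 6, and 9 against cluster 3 alone, where Hist1h1b (0.01), Top2a (0.00) and Nusap1 (0.00) no longer differed.

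For D10 against D3 the main 379 genes became 81 with DESeq2 (8434 adjusted p-values were not given), 58 with libraries of at least 10 cells, 114 thinned, 62 without the sex term, and 130 to 399 without each library, with 130 and 154 without D10_mixed 1 and D10_mixed 2. Thinned, Ube2c (3.53), Sparc (0.23) and Ch25h (-0.19) changed sign. For D21 against D10 the 269 genes became 126 with DESeq2 size factors, 24 with DESeq2, 8 with at least 10 cells, 153 in mixed libraries alone, 131 with sort in place of sex, 0 without the sex term, and 20 to 240 without each library (49 without D10_resident 1, 20 and 22 without D10_mixed 1 and D10_mixed 2). In mixed libraries alone Lag3 (-0.54), Cadm1 (-0.09), Kcnj2 (-0.32) and Nav3 (-0.06) changed sign, Lag3 then passing as lower. They did so too with sort in place of sex (-0.56, -0.11, -0.34 and -0.08; Lag3 again passing) and without the sex term (-0.31, -0.03, -0.21 and -0.01), and Nav3 also thinned (-0.24). Without D10_resident 1, Lag3 was -0.54, Cadm1 -0.08, Kcnj2 -0.32 and Nav3 -0.06. Without D10_mixed 1, Lag3 was -0.24 and Kcnj2 -0.22, and without D10_mixed 2, Lag3 was -0.05. For D10 against D2 the 1465 genes became 289 without the sex term, 651 with sort in place of sex, 116 with DESeq2, and 283 to 1501 without each library, with 284 and 283 without D10_mixed 1 and D10_mixed 2. For the interaction the 405 genes became 181 with DESeq2, 81 with at least 10 cells, 82 thinned, and 80 to 498 without each library, 80 without D10_mixed 2. Thinned, S100a8 (4.16), Lag3 (0.14), Ch25h (-0.96) and Kcnj2 (6.22) changed sign. With at least 10 cells Ch25h (-0.41) and Cadm1 (0.22) did, and Kcnj2 ranged from -0.61 to 0.05 without each library, reversed without D10_mixed 1. The cause of these changes was not tested.

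The comparison against D2, the fits without the sex term or with sort in its place and the comparison with cluster 3 alone were chosen after seeing the data. Where leaving out a library left too few for the sex term, the fit was made without it. Sort beside sex was not run because the 2 cannot be separated in these libraries, nor was pool beside sex, since pool, sex and sort divide the D10 libraries alike and the D3 and D21 libraries each have a pool of their own. Pool in place of sex gives the same D10 against D2 fit as sort does. Leaving out D3_mixed 3 leaves no D3 arm. No paired analysis was possible because the time groups compared share fewer than 2 replicate numbers among libraries with at least 20 cells. D3_mixed 3, with 270385 UMIs in the cluster, limits every D3 value, and 1 count there is a large step for genes of low level.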
